A study of Homo sapiens with 4 samples.

Results

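The NF-κB genes examined here are the 5 subunits of the transcription factor, the IκB proteins and IκB kinases that control it, its feedback inhibitors and TRAF adaptors, and cytokines, chemokines and other genes known as its targets. They were listed by name, with no rule on their values, but with earlier results of these data known. The table of MKN28 cells lists 23362 entries with 23196 gene symbols, and all 43 NF-κB genes are among them, each with 1 entry. The study asked what N-glycosylation of KIAA1324, a transmembrane protein, contributes to its effects in gastric cancer cells. MKN28, an established human gastric adenocarcinoma line, was infected with tet-on retroviral constructs and selected with G418 and puromycin. The 4 groups carried luciferase (Luc, the control), 3HA-tagged KIAA1324 WT, 3NQ with asparagine exchanged for glutamine at the putative N-glycosylation sites, or ΔTM without the transmembrane domain. All 4 therefore share the retroviral system and its selection, the transgenes are driven from an inducible vector, and 1 library stands for each construct. Whether each line is a clone or a pool, and the doxycycline dose and time before RNA was taken, were not given in the sources used here.

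Expression was measured as FPKM (mapped fragments scaled by transcript length and by library size), a unit per length, so levels can be set side by side between genes. There was 1 library per group. No difference below therefore has a replicate check, and no test, standard deviation or p-value is given. The depth of the libraries is unknown, since the values hold no counts. A ratio is the log2 ratio of FPKM + 1, in which 1 is a doubling, and it understates the change of genes of low FPKM. Calls, higher or lower, were made at 1.5-fold (0.585 on the log2 scale) over the 11729 symbols that reached an FPKM of 1 in any library. Of the 43 NF-κB genes, 32 passed this filter.

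The labels were first compared with KIAA1324 itself (ENSG00000116299, chromosome 1, 109656301 to 109749401, GRCh37). Its level was 2.86 FPKM for Luc, 11185 for WT and 8197 for 3NQ, and it was listed at 0 in the ΔTM-labelled library. The last value goes against its label, since the construct lacks only the transmembrane domain, so it is called the ΔTM-labelled library throughout. The reason for this 0 was not tested. The 8 epithelial markers (EPCAM, KRT8, KRT18 and others) all passed the filter and summed to an FPKM of 8205 in WT to 13943 in Luc. KRT8 and KRT18, the main keratins of simple epithelium, had log2 ratios of -0.91 and -0.80 in WT against Luc. They made up most of these sums, KRT8 at 8501 in Luc and 4510 in WT and KRT18 at 3684 and 2115. The other epithelial markers were not called in that comparison, with ratios from -0.22 (CDH1) to 0.02 (ELF3). The T and B cell markers CD3E and MS4A1 were listed at 0 in all 4 libraries, PTPRC (the pan-leukocyte marker) was at most 0.115, and the 8 leukocyte markers summed to 5.41 to 7.08, mainly CD68 at 4.44 to 5.84. Markers of fibroblasts and endothelium summed to 12.7 to 15.8, mainly COL1A1 at 12.1 to 15.3. Whether these marker values bear on the NF-κB genes was not tested. As in any bulk sample, fewer cells that express a gene and less of its RNA per cell cannot be told apart.

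NF-κB is a family of dimeric transcription factors that waits in the cytoplasm, held by IκB proteins. Signals from TNF, IL-1 and Toll-like receptors activate the IκB kinases, IκB is degraded, and the freed dimers enter the nucleus and bind short DNA motifs called kappa B sites. Their targets include the genes of IκBα and of the deubiquitinases that switch the pathway off again, and chemokines that draw leukocytes to inflamed gastric epithelium. In gastric epithelial cells the pathway is best known from infection with Helicobacter pylori, which induces IL-8. A transcript level reports neither the nuclear location nor the activity of a subunit.

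Promoters of NF-κB genes were searched for kappa B sites. RefSeq promoters (GRCh38.p14, 250 bases before to 50 after a start) were matched for 37 of the 43 genes. RELB, NFKBIE, IKBKB, CSF1, LIF and CCL2 had no entry in the promoters used. Both strands were searched for the kappa B consensus and for GGANTTTCC, a shorter motif whose matches overlap those of the consensus in part, so that many sites count under both. Of all 35116 promoters, 5.91% held the consensus, 1.64% held GGANTTTCC and 6.76% held either. Of the 58 NF-κB gene promoters, the corresponding shares were 41.4%, 31.0% and 44.8%. These genes are in the group partly because such sites are known in them, so their share is a description and not independent evidence. A match is not a measured binding site, and no match says only that these letters are absent from this window.

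The whole 300 bases are shown for IL8 and TNFAIP3, the chemokine and the feedback inhibitor whose values are described below, with the matches in capitals, 5′ to 3′. The IL8 promoter lies at chr4:73740319-73740618 on the plus strand, with its match 91 to 83 bases before the start. The TNFAIP3 promoter lies at chr6:137867009-137867308 on the plus strand, with matches 67 to 58 and 55 to 46 bases before the start.
IL8: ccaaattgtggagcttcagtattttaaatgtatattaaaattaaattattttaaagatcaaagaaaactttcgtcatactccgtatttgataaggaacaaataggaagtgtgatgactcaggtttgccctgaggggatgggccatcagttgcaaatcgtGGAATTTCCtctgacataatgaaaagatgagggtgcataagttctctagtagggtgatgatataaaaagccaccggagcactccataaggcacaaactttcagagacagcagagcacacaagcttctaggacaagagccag
TNFAIP3: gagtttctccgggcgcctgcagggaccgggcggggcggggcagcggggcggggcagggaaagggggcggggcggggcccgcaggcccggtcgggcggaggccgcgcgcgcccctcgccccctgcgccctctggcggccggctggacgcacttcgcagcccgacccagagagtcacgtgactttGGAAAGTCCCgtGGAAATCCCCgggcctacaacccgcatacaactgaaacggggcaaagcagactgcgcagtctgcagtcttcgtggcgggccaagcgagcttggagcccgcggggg

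Shorter windows are shown for 5 other chemokines and for NFKBIA, the classical feedback target, to set genes of very different FPKM beside each other. The windows lie at chr4:73869289-73869349 (CXCL1, plus strand), chr4:74099238-74099298 (CXCL2, minus strand), chr4:74038733-74038793 (CXCL3, minus strand), chr4:73998733-73998793 (CXCL5, minus strand), chr2:227813738-227813797 (CCL20, plus strand) and chr14:35404796-35404855 (NFKBIA, minus strand). Capitals again mark the match.
CXCL1: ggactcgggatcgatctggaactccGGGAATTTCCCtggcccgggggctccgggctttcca
CXCL2: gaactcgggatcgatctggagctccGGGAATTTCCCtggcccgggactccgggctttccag
CXCL3: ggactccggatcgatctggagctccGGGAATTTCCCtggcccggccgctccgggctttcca
CXCL5: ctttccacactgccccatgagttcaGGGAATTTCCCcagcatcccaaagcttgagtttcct
CCL20: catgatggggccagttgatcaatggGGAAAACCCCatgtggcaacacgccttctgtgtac
NFKBIA: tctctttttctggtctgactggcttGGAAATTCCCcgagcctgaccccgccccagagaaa
CXCL1, CXCL2, CXCL3 and CXCL5 hold the same 11 letters. The windows of CXCL1 and CXCL3 were identical, position by position, at 57 of 61 bases, those of CXCL1 and CXCL2 at 49 and those of CXCL2 and CXCL3 at 48. These CXCL genes were at or near 0 in all 4 libraries, whereas IL8, with a shorter match at a like distance, was not. Matches thus occur in genes at very different levels.

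Of the 5 subunits, which pair to form the dimers, RELB was the one called higher against Luc, in WT, and RELA the one called lower, in 3NQ. RELA (ENSG00000173039, chromosome 11, 65421067 to 65430565) encodes the main activating subunit. Its FPKM was 159.9 for Luc, 154 for WT, 78.9 for 3NQ and 213 for the ΔTM-labelled library. It was the most abundant of the 43 genes in every library but 3NQ, where TNIP1 (80.9) was slightly above it. Set against Luc, the ratios were -0.05 for WT, -1.01 for 3NQ and 0.41 for the ΔTM-labelled library, and the 3NQ library was 1.42 below the latter. RELA was the only one of the 32 genes at least 1.5-fold lower in 3NQ than in each of the other libraries, as were 0.213% of all genes. Its neighbours on chromosome 11 differed less between libraries. SIPA1, the nearest of them at lower coordinates, ranged from 2.56 in 3NQ to 3.17 in Luc, PCNXL3 from 31.3 to 33.1, KAT5 from 19.6 to 23.1 and MAP3K11 from 34.9 to 46.2. RNASEH2C ranged from 36.6 in 3NQ to 46.5 in the ΔTM-labelled library, the same ends as RELA, with a ratio of 3NQ to the latter of -0.34.

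RELB (ENSG00000104856, chromosome 19, 45504688 to 45541452), the subunit of the non-canonical pathway, had an FPKM of 6.67 for Luc, 14.6 for WT, 9.37 for 3NQ and 6.98 for the ΔTM-labelled library. WT stood apart, with a ratio to Luc of 1.02, against 0.44 for 3NQ and 0.06 for the ΔTM-labelled library. NFKB2, the precursor that partners RELB, was at 26.5, 34.2, 33.3 and 26.6 in the same order. NFKB1, the precursor that partners RELA, was at 26.7, 30.4, 30.2 and 25.5. Both precursors were higher in WT and 3NQ than in the other libraries by under 1.5-fold. REL, the subunit best known from lymphocytes, was at 3.41, 4.58, 4.89 and 3.53, again with WT and 3NQ above the others. The 5 subunits summed to an FPKM of 223 for Luc, 238 for WT, 157 for 3NQ and 275 for the ΔTM-labelled library, and RELA made up 71.6%, 64.9%, 50.4% and 77.3% of these sums. The RELB share was close between WT (6.11%) and 3NQ (5.985%), and lower for Luc (2.99%) and the ΔTM-labelled library (2.53%).

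**Figure D1:**
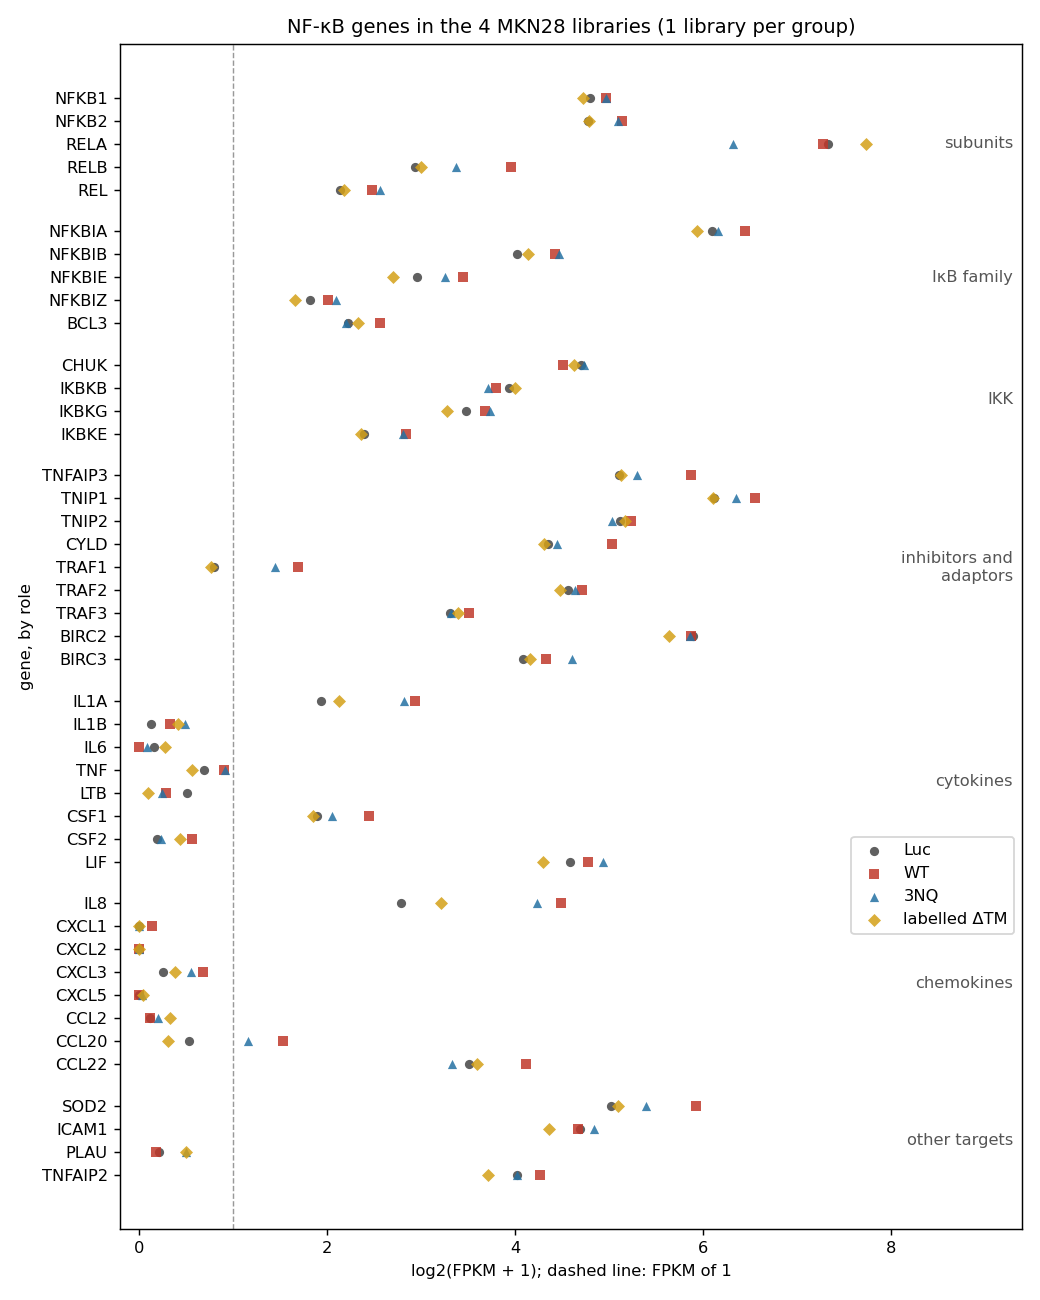
Level of each of the 43 NF-κB genes as log2(FPKM + 1), by role, with 1 point per library (Luc, WT, 3NQ and the ΔTM-labelled library) and a dashed line at an FPKM of 1. RELA spans from 78.9 in 3NQ to 213 in the ΔTM-labelled library, WT is the rightmost point for IL8, TNFAIP3, RELB and SOD2, and most CXCL genes lie at the left edge.

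The IκB family were all above Luc in WT, and none reached 1.5-fold. NFKBIA encodes IκBα, the inhibitor that is resynthesised first after NF-κB is activated, and its FPKM was 67.6 for Luc, 86.3 for WT, 70.5 for 3NQ and 60.2 for the ΔTM-labelled library. Its ratio to Luc was 0.35 in WT and 0.06 in 3NQ. NFKBIE, for IκBε, was at 6.76, 9.92, 8.54 and 5.50, and it was the one IκB gene past 1.5-fold between WT and the ΔTM-labelled library (0.75). NFKBIB, for IκBβ, was at 15.2, 20.5, 21.1 and 16.7, so WT and 3NQ were alike. NFKBIB overlaps SIRT2 on the opposite strand, which was itself at 10.2, 17.7, 12.2 and 10.7. The strand setting of the counting is not given in the sources used here, so reads of overlapping genes may not be told apart. Of the nuclear members, NFKBIZ was at 2.53, 3.04, 3.28 and 2.17, and BCL3, a co-activator bound to NF-κB precursor products, at 3.68, 4.91, 3.59 and 4.01. Over these 5 genes, WT had a median ratio of 0.35, 3NQ one of 0.28 and the ΔTM-labelled library one of -0.15, each against Luc.

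None of the IκB kinases was called in any comparison. CHUK and IKBKB, the catalytic subunits, were at 24.97, 21.8, 25.7 and 23.7 and at 14.3, 12.9, 12.1 and 15.0 in Luc, WT, 3NQ and the ΔTM-labelled library. Both were lower in WT than in Luc, by 0.19 and 0.14 on the log2 scale. CHUK overlaps ERLIN1 on the same strand, which was lower in WT as well, with a ratio of -0.41. IKBKG, the regulatory subunit, was at 10.2, 11.8, 12.3 and 8.72. It has a near-identical pseudogene copy, so the split of its reads is uncertain. IKBKE, a related kinase that also acts in interferon signalling, was at 4.26, 6.17, 6.01 and 4.16, higher in WT and 3NQ. The median ratio of the 4 kinases to Luc was 0.03 in WT.

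Of the feedback inhibitors, TNFAIP3 and CYLD were called higher in WT. Both encode deubiquitinases that remove the ubiquitin chains on which the kinase complex is assembled. TNFAIP3 (ENSG00000118503, chromosome 6, 138188351 to 138204449) had an FPKM of 33.4 for Luc, 57.8 for WT, 38.3 for 3NQ and 34.0 for the ΔTM-labelled library. The log2 level of 3NQ was 0.19 above Luc and that of the ΔTM-labelled library 0.02, while WT was 0.77 above it and 0.58 above 3NQ, just under 1.5-fold for the latter. CYLD (ENSG00000083799, chromosome 16, 50775961 to 50835846) was at 19.5, 31.6, 20.7 and 18.9. It was the only one of the 32 genes at least 1.5-fold higher in WT than in each other library (ratios 0.67, 0.59 and 0.71), as were 0.938% of all genes. With median-of-ratios or upper-quartile rescaling, no NF-κB gene met this rule, so CYLD lies at the threshold, and with 5 FPKM added its ratio to Luc was 0.58 and not called.

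The binding partners of TNFAIP3 were less different. TNIP1 was at 68.7 for Luc, 92.9 for WT, 80.9 for 3NQ and 67.8 for the ΔTM-labelled library, and TNIP2 at 33.8, 36.6, 31.7 and 35.0. TRAF1, an adaptor of TNF receptors and a known NF-κB target, was at 0.742, 2.22, 1.73 and 0.698, with ratios to Luc of 0.89 in WT and 0.65 in 3NQ. It passed the filter only through these 2 libraries, so it had to differ, and its call in WT was lost with 5 FPKM added (0.33) and against the averaged 3NQ and ΔTM-labelled libraries (0.54). TRAF2, the adaptor that recruits the ligases to the receptor, was at 22.6, 25.3, 23.9 and 21.3. TRAF3, which restrains the non-canonical pathway, was at 8.89, 10.4, 8.94 and 9.54. Neither TRAF gene reached 1.5-fold in any comparison. BIRC2 and BIRC3 encode the ubiquitin ligases cIAP1 and cIAP2 and lie next to each other on chromosome 11. BIRC2 was at 58.4, 57.6, 57.1 and 48.8. BIRC3 was at 15.96, 19.2, 23.4 and 16.9, the highest in 3NQ, where its ratio to Luc was 0.53.

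Of the 8 cytokines, 3 passed the filter, and IL1A was called higher. IL1A (ENSG00000115008, chromosome 2, 113531492 to 113542167) encodes an epithelial alarmin, and its FPKM was 2.83 for Luc, 6.66 for WT, 6.04 for 3NQ and 3.38 for the ΔTM-labelled library. WT and 3NQ lay well above the others, with ratios to Luc of 1.00 and 0.88. Its call in WT was lost with 5 FPKM added (0.58) and with the mean of 3NQ and the ΔTM-labelled library as the control (0.42). CSF1, the macrophage growth factor, was at 2.73, 4.46, 3.16 and 2.61, where only WT stood apart, at 0.55 above Luc and under 1.5-fold. LIF, a cytokine of the IL-6 family, was the most abundant, at 23.003, 26.3, 29.6 and 18.7, and it was higher in 3NQ than in the ΔTM-labelled library by 0.63. The small gene MGC20647, which overlaps LIF, was at 1.54 to 2.23. LIF made up 67.0% to 76.8% of the summed cytokine FPKM. The classical inflammatory cytokines were under 1 throughout: TNF at 0.478 to 0.883, IL1B at 0.0929 to 0.403, IL6 at 0 to 0.208, LTB at 0.0670 to 0.423 and CSF2 at 0.139 to 0.481. At such levels no ratio is read.

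Of the 8 chemokines, IL8, CCL20 and CCL22 passed the filter, and all 3 were called higher in WT. With 5 FPKM added, CCL20 (0.34) and CCL22 (0.48) were no longer called and IL8 still was. IL8 (ENSG00000169429, chromosome 4, 74606223 to 74609433), also named CXCL8, attracts neutrophils. Its FPKM was 5.88 for Luc, 21.4 for WT, 17.8 for 3NQ and 8.25 for the ΔTM-labelled library. The ratios to Luc were 1.70, 1.45 and 0.43, the largest in each library among the 32 genes. WT was 0.25 above 3NQ, so WT and 3NQ were close to each other and both were over 1 above the ΔTM-labelled library (1.28 and 1.03). CCL20 (ENSG00000115009, chromosome 2, 228678558 to 228682272), which attracts cells with the receptor CCR6, was also highest in WT and next in 3NQ at far lower levels, 0.445, 1.88, 1.24 and 0.241, and unlike IL8 it was lowest in the ΔTM-labelled library. Like TRAF1, it passed the filter only through WT and 3NQ.

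CCL22 (ENSG00000102962, chromosome 16, 57392684 to 57400102), a ligand of CCR4 on regulatory and helper T cells, had another order. Its FPKM was 10.4 for Luc, 16.4 for WT, 9.03 for 3NQ and 11.1 for the ΔTM-labelled library, so only WT was higher (0.61 above Luc and 0.79 above 3NQ). Its neighbours on chromosome 16 were not higher in WT than in Luc. CX3CL1, a membrane-bound chemokine, was at 3.72, 1.58, 1.45 and 1.48, highest in Luc. CCL17, which shares the receptor of CCL22, was at 0.279 in Luc and listed at 0 elsewhere, too low for a ratio to be read.

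The CXC genes beside IL8 on chromosome 4 were hardly measured. CXCL2 was listed at 0 in all 4 libraries, CXCL1 at 0 in all but WT (0.101), CXCL5 reached 0.0260 and CXCL3 ranged from 0.192 in Luc to 0.605 in WT. CXCL1, CXCL2 and CXCL3 are close copies whose shared reads the authors' correction divides, so their split is uncertain. CXCL6, PF4V1 and PF4, which lie between them, were listed at 0 throughout. CCL2, the monocyte chemokine on chromosome 17, was at 0.0842 to 0.253. The 8 chemokines summed to 16.98 for Luc, 40.5 for WT, 28.7 for 3NQ and 20.1 for the ΔTM-labelled library, and IL8 and CCL22 together made up 93.4% to 95.9% of the sum. IL8 alone made up 34.6% for Luc, 52.9% for WT, 62.0% for 3NQ and 40.9% for the ΔTM-labelled library.

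**Figure D2:**
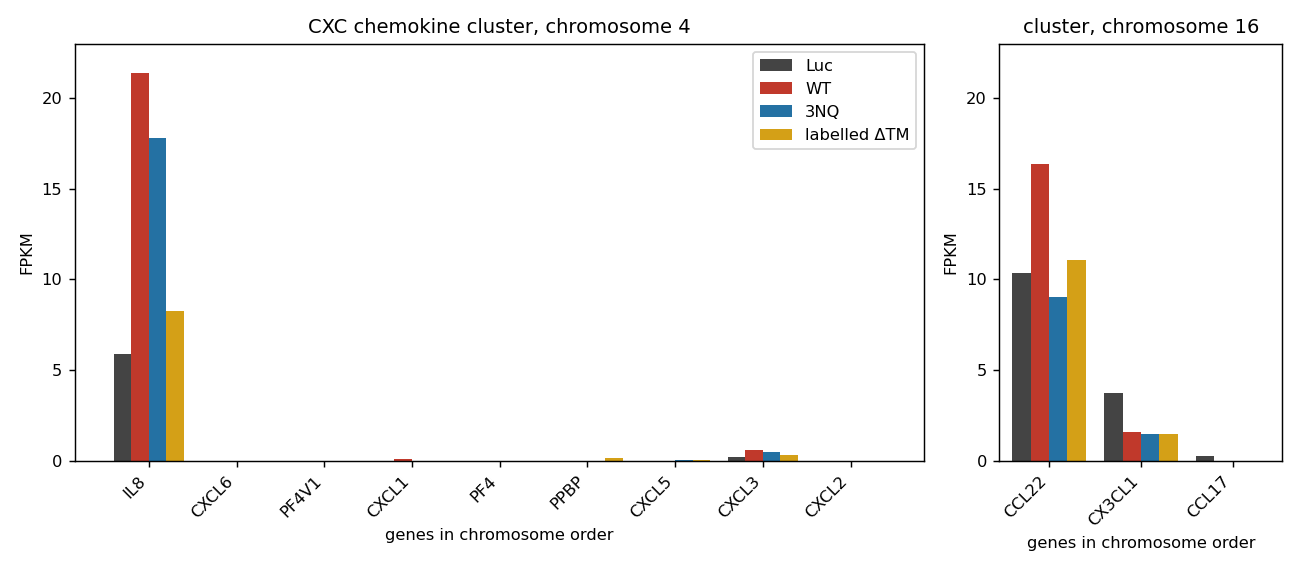
FPKM of the chemokine genes of chromosomes 4 and 16 in chromosome order, 1 bar per library and no error bars, since each group has 1 library. IL8 reaches 21.4 in WT and 17.8 in 3NQ while the other CXC genes stay under 1, and CCL22 and CX3CL1 are highest in different libraries.

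Among the other targets, SOD2 was called higher in WT. SOD2 (ENSG00000112096, chromosome 6, 160100096 to 160183561), the mitochondrial superoxide dismutase, had an FPKM of 31.4 for Luc, 59.7 for WT, 41.2 for 3NQ and 33.2 for the ΔTM-labelled library, with ratios to Luc of 0.91, 0.38 and 0.08. WT was the highest and 3NQ lay between WT and the others. Its entry overlaps WTAP and ACAT2 on the opposite strand, of which WTAP was at 48.6 in Luc and 48.8 in WT, and ACAT2 was lower in WT (46.0 in Luc and 30.8 in WT). ICAM1, an adhesion molecule for leukocytes, was at 24.9, 24.4, 27.7 and 19.6, and TNFAIP2, a TNF-induced gene, at 15.3, 18.3, 15.3 and 12.1. Both were lowest in the ΔTM-labelled library, by 0.33 and 0.31 below Luc. PLAU, the urokinase gene, was below the filter at 0.134 to 0.414.

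Over the 32 genes, WT against Luc gave 27 above Luc and 5 below, with a median ratio of 0.34, where the median of all genes was -0.0049 and 49.1% lay above. The 9 called higher were RELB, TNFAIP3, CYLD, TRAF1, IL1A, IL8, CCL20, CCL22 and SOD2, and none was called lower. Of all genes tested, 3.35% were called higher and 3.3% lower. A filter at an FPKM of 5, which leaves out TRAF1 and CCL20 among others, kept 26 genes, of which 7 were called higher, against 2.95% of all genes. IL1A, among these 7, reached 5 only in WT and 3NQ, so its call is partly set by this filter. With 5 FPKM added in place of 1, 4 of the 32 were called higher, against 1.24% of all genes.

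The median ratios in WT by role were 0.34 for the subunits, 0.35 for the IκB family, 0.03 for the kinases, 0.25 for the inhibitors and adaptors, 0.55 for 3 cytokines, 1.00 for 3 chemokines and 0.25 for 3 other targets. Over all listed genes, without the filter, the last 3 were 0.20, 0.28 and 0.11, and with 5 FPKM added to the genes that passed, the cytokines had 0.29 and the chemokines 0.48. The filtered chemokine median of 1.00 is the ratio of CCL20, which passed the filter only through WT and 3NQ. Low genes reach the threshold more often, so the calls are also given by level. Of genes with a mean FPKM under 5, 5.95% were called higher in WT and 3 of 7 NF-κB genes. From 5 to 20 the values were 2.99% and 3 of 11, and from 20 to 100 they were 2.32% and 3 of 13. Of the 3 called under 5, TRAF1 and CCL20 passed the filter only through WT and 3NQ, so the filter partly set that count. These counts describe the 4 libraries and, with 1 library per group, an effect of a construct and a difference between cultures cannot be told apart.

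Against the same Luc library, 3NQ gave 26 genes above and 6 below, with a median of 0.21 (-0.038 for all genes). Of all genes, 43.0% lay above. TRAF1, IL1A, IL8 and CCL20 were called higher and RELA was called lower, where 1.72% of all genes were called higher and 2.54% lower. After upper-quartile rescaling the shares of all genes were 2.05% and 2.02%. TRAF1 and CCL20 passed the filter only through WT and 3NQ, so the count called higher in 3NQ is partly set by the filter. A filter at an FPKM of 5 left 2 genes called higher in 3NQ, against 1.49% of all genes. IL1A, among them, reached 5 only in WT and 3NQ. With 5 FPKM added, 1 gene was called higher in 3NQ, against 0.818% of all genes. The ΔTM-labelled library gave 15 above and 17 below, with a median of -0.025 (-0.060 for all genes), which turned to 0.035 or 0.028 with median-of-ratios and upper-quartile rescaling. None of the 32 was called in either direction there, where 1.53% of all genes were called higher and 1.57% lower. Rescaling by the median of ratios gave 1.88% and 1.23% in that comparison. All 3 comparisons share the Luc library, so their values are not independent of each other.

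**Figure D3:**
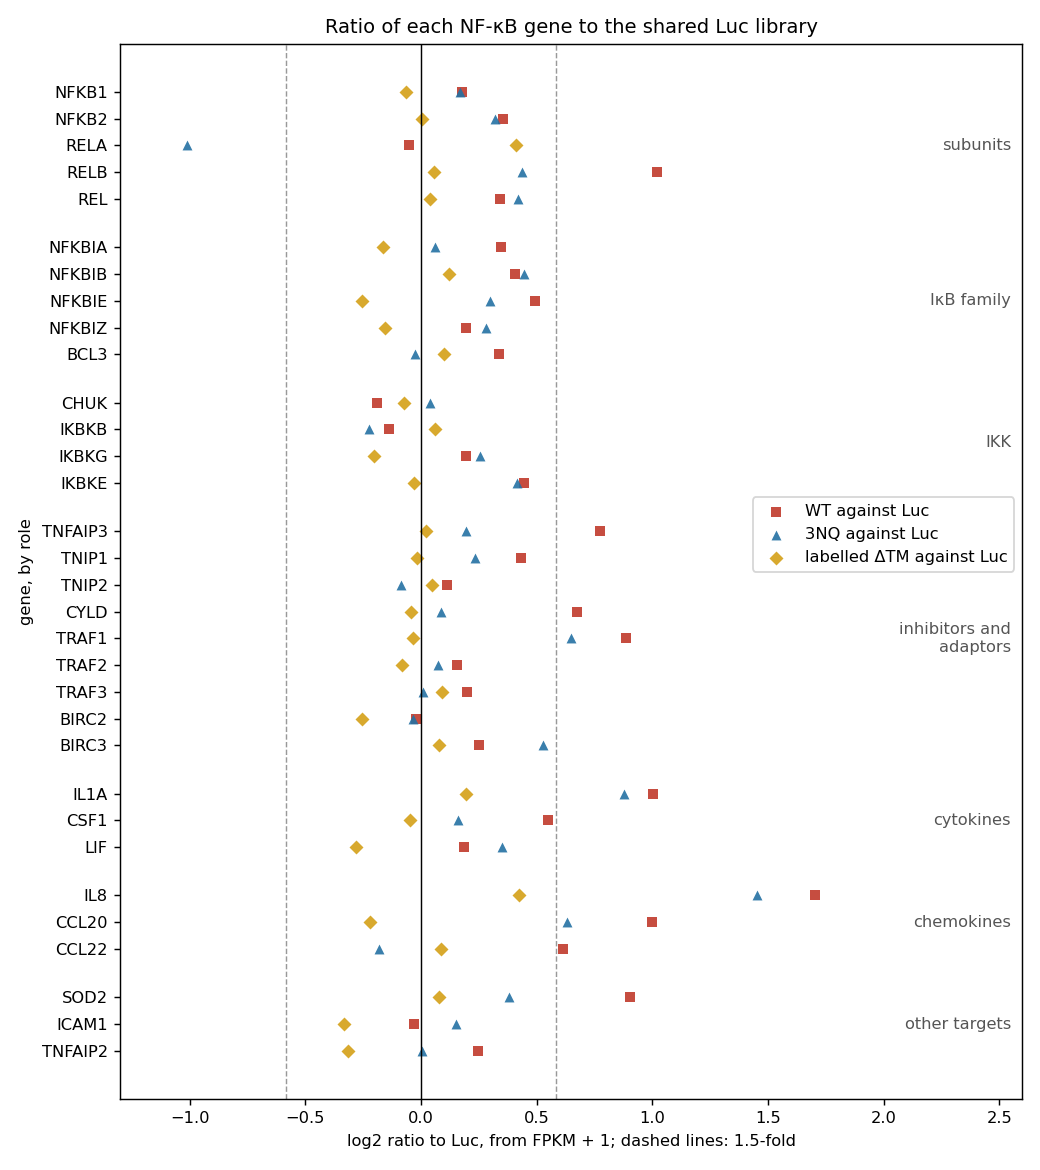
Log2 ratio of FPKM + 1 to the shared Luc library for the 32 genes that passed the filter, by role, with 1 point for each of WT, 3NQ and the ΔTM-labelled library and dashed lines at 1.5-fold. WT lies past the right line for 9 genes, 3NQ for 4 and past the left line for RELA, and the ΔTM-labelled library lies within both lines for all 32.

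Comparisons that do not use Luc were also made. WT against 3NQ called RELA (0.96), CCL22 (0.79) and CYLD (0.59) higher and none lower, where 2.87% of all genes were called higher and 1.53% lower. Of the 32 genes, 24 were above, where 54.8% of all genes were. WT against the ΔTM-labelled library called 10 higher, which were RELB, NFKBIE, TNFAIP3, CYLD, TRAF1, IL1A, CSF1, IL8, CCL20 and SOD2, and none lower. Of the 32 genes, 29 were above, with a median of 0.42, where 57.0% of all genes were above, with a median of 0.047. There 4.22% of all genes were called higher and 2.89% lower, and 3.34% and 3.66% after rescaling by the median of ratios. TRAF1 and CCL20, among the 10 called higher, passed the filter only through WT and 3NQ, so that count is partly set by the filter. WT had the highest FPKM of the 4 libraries for 21 of the 32 genes (65.6%), against 33.6% of all genes. The exceptions were BIRC2, highest in Luc, RELA and IKBKB, highest in the ΔTM-labelled library, and 8 genes highest in 3NQ, which were REL, NFKBIB, NFKBIZ, CHUK, IKBKG, BIRC3, LIF and ICAM1. The ΔTM-labelled library was the lowest for 16 genes, Luc for 10, 3NQ for 5 and WT for 1. Shares of all genes were not computed for these lowest counts, nor for the genes highest in Luc, 3NQ or the ΔTM-labelled library. Over all genes the ΔTM-labelled library also lay below Luc, with a median of -0.060. Whether its count of 16 differs from the share of all genes was not tested.

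WT against Luc and 3NQ against the ΔTM-labelled library share no library, a pairing chosen after the data were seen. In 3NQ against the ΔTM-labelled library, 26 of 32 genes were above, where 54.2% of all genes were. IL8 (1.03), CCL20 (0.85), IL1A (0.68), TRAF1 (0.68) and LIF (0.63) were called higher there, and RELA was called lower (-1.42). Of all genes, 1.42% were called higher and 1.84% lower. IL8, CCL20, IL1A and TRAF1 were called higher in both pairs, as were 39 (0.333%) of the 11729 genes. CCL20 and TRAF1 passed the filter only through WT and 3NQ, the numerators of both pairs, so this count is partly set by the filter. A ratio above 0 in both pairs was found for 23 of the 32 genes (71.9%) and for 33.0% of all genes. Across the 32 genes the ratios of the pairs had a Pearson correlation of 0.53 and a Spearman correlation of 0.44, against 0.22 and 0.34 across all genes. Without RELA the NF-κB genes gave 0.55 and 0.39. Over all genes the ratios ran from -11.7 to 11.5 in the first pair and from -10.7 to 13.0 in the second. KIAA1324 was at the top of both. A Pearson correlation is sensitive to such extreme values, so 0.53 and 0.22 are not on an equal footing. Genes are not independent replicates, so these are descriptions of 4 libraries. RELB, SOD2, TNFAIP3 and CYLD had ratios of 0.38, 0.30, 0.17 and 0.13 in the second pair and were called only in the first, and the difference between the pairs was not tested. CCL22 was above 0 in WT against Luc (0.61) and below 0 in the second pair (-0.27).

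**Figure D4:**
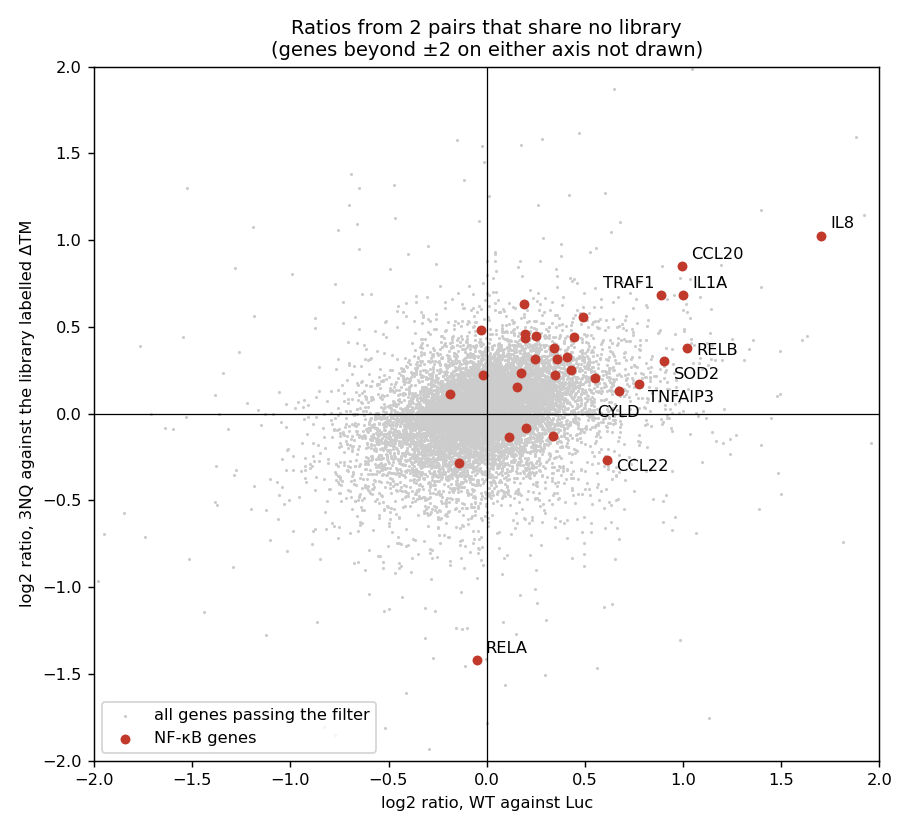
Log2 ratio of FPKM + 1 in WT against Luc (x axis) and in 3NQ against the ΔTM-labelled library (y axis), 2 pairs with no library in common, for all genes that passed the filter (grey) and the 32 NF-κB genes (red). Of the red points, 23 lie in the upper right quadrant, IL8 is farthest out at 1.70 and 1.03, and RELA lies alone at -0.05 and -1.42.

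Promoter matches were found among the called genes, the uncalled genes and the genes below the filter. Of the 9 genes called higher in WT against Luc, 8 had a promoter in the table and 5 held a match (TNFAIP3, CYLD, IL8, CCL20 and CCL22), while TRAF1, IL1A and SOD2 held none in these windows. Of the 23 that passed the filter and were not called, 19 had a promoter and 11 held a match, among them NFKBIA, NFKB1, BIRC3 and ICAM1. Of the 11 below the filter, 10 had a promoter and 6 held a match, including IL6 and the CXCL genes. RELA held none.

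The genes upstream of the kinases and further targets were read from lists of other genes of the pathway. Of 37 receptors, adaptors and kinases, 29 passed the filter, and 1 was called higher and 0 lower in WT against Luc, with a median of 0.13. That count is near the background of 3.35% higher and 3.3% lower over all genes. The gene called was IRAK2, a kinase of the IL-1 and Toll-like receptor complex, at 2.75 for Luc, 6.53 for WT, 5.35 for 3NQ and 3.52 for the ΔTM-labelled library, an order like that of IL8. With 5 FPKM added, none of this list was called. Of 33 further known targets, 23 passed, with a median of 0.12, and 2 were called higher and 2 lower, where 3.35% and 3.3% of all genes were. TNFRSF9, a receptor of the TNF family, was called higher (3.22, 6.46, 5.47 and 4.396), as was CFB, complement factor B (8.90, 14.1, 8.01 and 8.51). Called lower were C3, the central complement protein (11.1, 5.59, 8.82 and 5.70), and CX3CL1, named after its values were seen. With 5 FPKM added, none of this list was called higher and 1 was called lower.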

How the data were processed

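The study prepared poly(A) RNA libraries with a TruSeq RNA kit, sequenced them on an Illumina sequencer, mapped filtered reads to GRCh37 with TopHat and estimated gene levels with Cufflinks (version 2.1.1), with non-coding regions masked and corrections for multiply mapped reads and fragment bias. The deposited values used here are FPKM per gene made by the authors, 1 column per library, which sum to 560360.3 to 584902.2 per library. Depth, and thus counting error, is unknown. The study used no replicates in this experiment and called genes with Cuffdiff p-values, which were not used here.

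Python (3.11.15), numpy (2.4.6) and pandas (2.3.3) were used. A repeated symbol took its entry with the highest mean FPKM. Genes that reached an FPKM of 1 in any library were kept, a pseudocount of 1 FPKM was added, and a gene was called at 1.5-fold. The calling step was run on simulated data in which genes of higher FPKM were given 2-fold changes with little noise. That run checks the code only. It says nothing about calls at low FPKM or near 1.5-fold. Every NF-κB gene that passed the filter is named, and of the other lists those called in WT against Luc that reached an FPKM of 5. The genes, lists and thresholds were chosen with earlier results of these data known. Of the 43 gene identifiers, 40 were found in GENCODE on GRCh37, and all 40 agree in chromosome and strand and overlap in position. Coordinates of genes are those of the deposited table (GRCh37), and those of promoter sequences are from RefSeq (GRCh38.p14). IL8 was matched to CXCL8 by its Ensembl identifier or, where that found nothing, by its synonym.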

Additional observations from a re-analysis of the deposited data

How the results depend on the processing

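No paired analysis was possible because each group has 1 library. No called ratio of a single NF-κB gene to Luc changed sign on rescaling or with the mean of 3NQ and the ΔTM-labelled library as the control. The other alternatives, a fold threshold, pseudocounts, filters and summed symbols, could not change such a sign. Ratios of single genes in comparisons without Luc were not rerun. Ratios to Luc near 0 did change sign on rescaling. In 3NQ these were BCL3 and BIRC2, and in the ΔTM-labelled library IKBKE, TNIP1, CYLD and, by the median of ratios only, CSF1. Summing repeated symbols moved no NF-κB count or median by more than the limits used. At 2-fold, the genes called higher were 3 in WT against Luc, 1 in 3NQ against Luc, 0 in WT against 3NQ, 2 in WT against the ΔTM-labelled library and 1 in 3NQ against it, and 0 were past the fold in WT against each other library. The shares of all genes in these 5 comparisons were 0.665%, 0.477%, 0.486%, 0.725% and 0.392%.

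A pseudocount of 0.1 FPKM gave 5 genes higher in WT against 3NQ (4.93% of all genes) and 1 lower in the ΔTM-labelled library against Luc (CCL20, where 3.26% of all genes were lower). It put 3 genes in WT past each other library. The share of all genes for this rule was computed only at the main settings, so that count has no background. Medians to Luc were 0.69 (cytokines, WT), 1.85 (chemokines, WT) and 1.30 (chemokines, 3NQ). A pseudocount of 5 FPKM gave 4 higher in WT and 1 in 3NQ against Luc (1.24% and 0.818% of all genes), 5 in WT and 1 in 3NQ against the ΔTM-labelled library (1.51% and 0.477%), and 0 past each other library. Medians in WT against Luc were then 0.24 (all 32), 0.19 (subunits), 0.29 (cytokines) and 0.48 (chemokines), those in 3NQ 0.14 (IκB family) and 0.20 (chemokines), and that of WT against the ΔTM-labelled library 0.30. CYLD, TRAF1, IL1A, CCL20 and CCL22 were no longer called in WT, nor TRAF1, IL1A and CCL20 in 3NQ, against Luc.

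Without a filter, medians to Luc were 0.20 (cytokines), 0.28 (chemokines) and 0.11 (other targets) in WT, 0.19 (cytokines) and 0.061 (chemokines) in 3NQ, and -0.12 (other targets) in the ΔTM-labelled library. Over all 43 genes, WT against 3NQ gave 0.087 and WT against the ΔTM-labelled library 0.30. With FPKM of at least 5 in a library, 2 genes were called higher in 3NQ against Luc and 3 in 3NQ against the ΔTM-labelled library (1.49% and 1.1% of all genes). Both counts include IL1A, which reached 5 only in WT and 3NQ. The medians to Luc were then 1.16 (chemokines, WT), 0.61 (cytokines, 3NQ) and 0.26 (chemokines, ΔTM-labelled library). The filters change which genes enter a median, and the pseudocount changes the weight of low genes by construction.

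Median-of-ratios rescaling and upper-quartile rescaling each left 0 genes past 1.5-fold in WT against each other library. With the mean of 3NQ and the ΔTM-labelled library as the control, medians in WT were 0.21 (all 32), 0.12 (subunits), 0.42 (cytokines), 0.68 (chemokines) and 0.39 (other targets), and TRAF1 (0.54) and IL1A (0.42) were no longer called. Precision is limited by single libraries of unknown depth.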
